A study of Mus musculus with 4 samples.

Results

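The Hox cluster genes are the 38 mouse genes on the array whose name reads Hoxa, Hoxb, Hoxc or Hoxd followed by a number, and they were taken by that name with all of their 50 probes, out of 28104 genes and 41174 probes. The name, not a measured value, chose them: 11 belong to the HoxA cluster, 10 to HoxB, 8 to HoxC and 9 to HoxD, 26 with 1 probe and 12 with 2. RNA was measured in fetal brain of C57BL/6J mice on 4 two-colour microarrays of 60-base probes. The first tested pool came from fetuses whose dams went without food for a night at gestation day 17 (food deprivation, FD), and the second from fetuses of dams given 50% of the control amount of chow from gestation day 10 to 17 (food restriction, FR). Control dams ate the same chow ad libitum. Each pool joined RNA of 5 fetuses and was hybridised with control RNA on 2 arrays, a dye swap. The series text names caesarean section on gestation day 18 for FR and leaves the day implicit for FD. The labels do not say whether the FD arrays and the FR arrays carried the same control RNA, which is therefore named here by its arrays. Every condition is 1 pool, so values below are technical repeats of 1 pool, no difference was tested and no p-value was computed. An effect of the diet and ordinary variation between pools cannot be told apart.

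Hox genes encode transcription factors with a homeodomain, a DNA-binding fold whose recognition helix lies in the major groove. They stand in 4 clusters in which the order of the genes along the chromosome follows the order of their expression along the body axis, a property called collinearity. Low-numbered paralogues are expressed up to the segments of the hindbrain, paralogues of middle number from the caudal hindbrain into the cervical and thoracic spinal cord, and the highest-numbered ones in lumbar and sacral cord, limbs and genitalia. The forebrain and midbrain express almost none of them. Retinoic acid and Cdx factors start their expression in the embryo, Polycomb proteins keep silent copies silent, and Pbx and Meis proteins bind DNA together with the Hox proteins.

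The sequences of the probes behind the highest and lowest Hox values are shown because they are what the measurements read. In Hoxa6 the capitals mark the codons of the Pro-Trp-Met core of the hexapeptide, the short motif that contacts Pbx, which places that probe in coding sequence.
Hoxa6: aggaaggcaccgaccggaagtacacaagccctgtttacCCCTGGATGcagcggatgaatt
For the others the first 30 of 60 bases are given, without capitals, since the array files do not say whether they lie in coding or untranslated sequence.
Hoxb3: tattgtattctagacaagagctgtagattt
Hoxa5: gtgtaattaatgctgttgtagaggtgactt
Hoxa7: gacagttggaaaagcgtctttaagagactc
Hoxb7: gttgctagtaaggtctttgtaaaatcttgc
Hoxb8: gtgagcattgttaaaaatgttcttaggttt
Hoxb9: tcctatcctcatttgacagaatgtaacttt
Hoxc5: gtgtgtgtctaagttacccagacttttcta
Hoxb4: atcggcgcatgaagtggaaaaaagaccaca
Hoxd4: tcatatggcaggagctactgagaacataaa
On build mm9 the array files place the whole probes at chr6:52158194-52158253 (Hoxa6), chr6:52152049-52152108 (Hoxa5) and chr6:52165626-52165685 (Hoxa7), all on the minus strand. On the plus strand lie chr11:96209002-96209061 (Hoxb3), chr11:96151211-96151270 (Hoxb7), chr11:96146456-96146515 (Hoxb8), chr11:96137065-96137124 (Hoxb9), chr11:96181521-96181580 (Hoxb4), chr15:102846969-102847028 (Hoxc5) and chr2:74566866-74566925 (Hoxd4).

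Detection followed the paralogue number. A gene counted as measured in a comparison when all 4 of its channels (2 dyes, 2 arrays) showed a probe well above background. By that rule 19 of the 38 Hox genes (50.0%) were measured on the FD arrays and 20 (52.6%) on the FR arrays, against 63.9% and 66.0% of all genes. Of the paralogues 1 to 4, 10 of 12 genes were measured in both comparisons, and of the paralogues 5 to 8, 8 of 11. Of the paralogues 9 to 13, 1 of 15 was measured on the FD arrays (Hoxa9) and 2 of 15 on the FR arrays (Hoxa9 and Hoxb9). The only Hoxa9 probe covers the codons of the homeodomain recognition helix and shares a run of 22 bases with a Hoxb3 probe. Whether the Hoxa9 signal includes RNA of other Hox genes was not tested. None of the 11 genes numbered 10 to 13 was measured. The share also differed by cluster: 8 of 11 HoxA genes were measured, 6 of 10 HoxB genes on the FD arrays and 7 of 10 on the FR arrays, 3 of 8 HoxC genes and 2 of 9 HoxD genes. For 10 genes no channel of any array was well above background on any probe, and for those genes the arrays give only an upper bound. The median GC content of the probes was 40.0% for the 23 measured in both comparisons and 41.7% for the other 27.

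**Figure D1:**
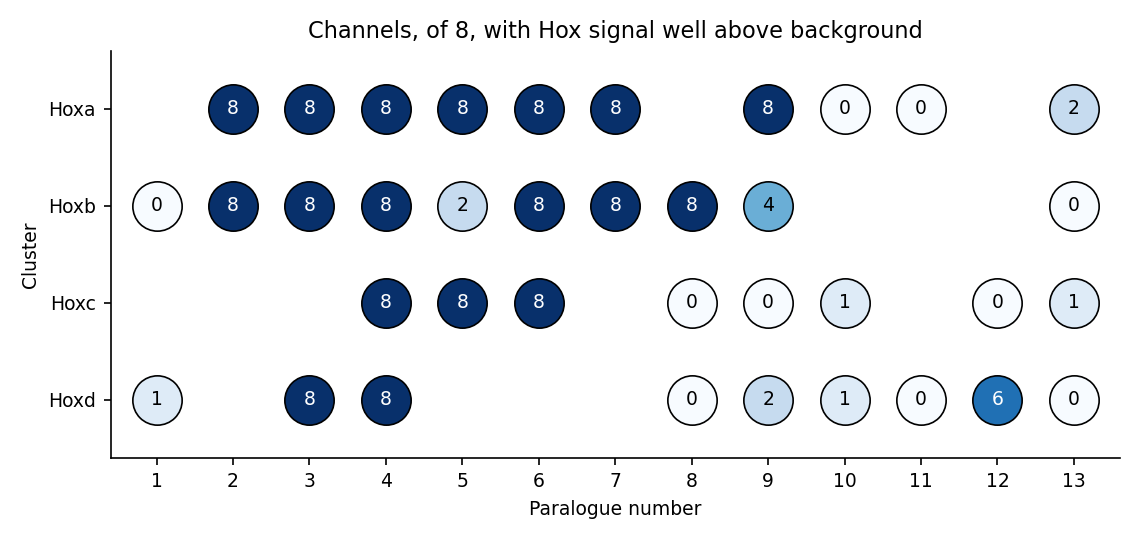
Number of the 8 channels (4 arrays, 2 dyes) in which the best probe of each Hox gene was well above background, by cluster (rows) and paralogue number (horizontal axis), for 37 of the 38 genes. Among the circles marked 8, Hoxa9 is the one to the right of number 8, and Hoxb9 has 4, all on FR arrays.

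Members with few detected channels need separate mention. Hoxb1, whose protein patterns rhombomere 4 of the hindbrain, was printed on 10 spots, none well above background. Hoxd12, a gene of the limb and caudal trunk, passed in 6 of 8 channels and failed the rule. Hoxb5 showed a bright spot but carried an outlier-pixel flag on 3 arrays and was left out. With flagged spots kept, all 8 of its channels were above background, and its log2 ratio was 0.18 and 0.10 for FD over control and 0.52 and 0.13 for FR over control. One Hoxb2 probe lay on the strand opposite to its cluster and was above background in 1 channel, so Hoxb2 is given by its other probe.

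Of 12 general neural genes 11 were measured in each comparison, beside 63.9% of all genes in FD and 66.0% in FR. The mean log2 level of the 10 measured in both lay between 10.48 and 10.58 in the 4 RNAs. By the same rule 12 of 14 skeletal muscle genes were measured in FD and all 14 in FR. Detection therefore cannot tell brain alone from brain with other tissue. Each array had 43379 spots other than controls, and 71.4% to 85.3% of them were well above background per channel. For each dye and kind of RNA the share was higher on the FR array: 79.1% and 73.5% for the FD pool and 71.4% and 81.0% for its control, against 84.2% and 75.6% for the FR pool and 75.6% and 85.3% for its control. The technical SD of a mean log2 ratio over a dye swap was 0.13 over all genes in FD and in FR, and 0.11 and 0.14 over the measured Hox genes. The array number limits the precision, and no Hox spot was saturated.

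In FD brains no measured Hox gene passed a 1.2-fold difference from control on both arrays. The median log2 ratio of the 19 genes was 0.07, with 0.11 and 0.07 on the separate arrays, and the median of all 17951 measured genes was 0.0043. On both arrays 10 of the 19 were above 0 and 3 were below, whereas over all genes 25.5% were above and 23.3% below. At 1.2-fold 1.18% of all genes were higher on both arrays and 1.0% lower, and at 1.5-fold 0.0891% and 0.128%. The means of 7 of the 19 were larger than the technical SD of 0.13, all of them above 0. With the scanner's own ratio 1 Hox gene passed 1.2-fold, and with median centring in place of loess 1 was above 0 on both arrays and 0 below.

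The highest FD values belonged to genes of the HoxA and HoxB clusters. Hoxb3, which acts in the caudal rhombomeres, had log2 channel levels of 8.65 and 8.52 in the FD pool, against 8.07 and 8.32 in control. The probe shown above thus gave log2 ratios of 0.58 and 0.20 and a mean of 1.31-fold, higher on both arrays but past 1.2-fold on only the first. The second probe of the gene gave 0.13 and 0.07, so both Hoxb3 probes had the same sign and sizes that differed by 0.29 in the mean. Hoxa5, a gene of the cervical cord that phrenic motor neurons require, had levels of 9.33 and 9.05 in the FD pool and 8.70 and 8.92 in control, with ratios of 0.62 and 0.12. Array 1 carried most of the difference in both genes.

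The remaining high members were smaller and more even. Hoxb7, a thoracic-level gene, had ratios of 0.26 and 0.16 and Hoxa7, its paralogue, 0.14 and 0.20. Hoxb8 had 0.07 and 0.30, and the means of Hoxa7 and Hoxb8, 0.17 and 0.18, were 0.31 and 0.36 with the scanner's own ratio. Hoxb2, which facial motor neurons require, had 0.27 and 0.07, and Hoxa2, the selector gene of the second branchial arch, had 0.15 and 0.13. At the low end stood Hoxa6 with -0.02 and -0.09 and Hoxd4 with -0.04 and -0.03. Hoxb4 gave -0.21 and 0.14, Hoxc5 0.02 and -0.08, Hoxd3 -0.01 and -0.03 and Hoxa9 -0.07 and 0.05. None of these 6 low members was further from 0 in its mean than the technical SD.

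By cluster, the FD median was 0.18 for the 6 measured HoxB genes, 5 of which were above 0 on both arrays. It was 0.09 for 8 HoxA genes, 0.05 for 3 HoxC genes and -0.03 for 2 HoxD genes, both of which were below 0 on both arrays. By position, it was 0.05 over paralogues 1 to 4 and 0.12 over paralogues 5 to 8. These groups of 2 to 10 genes are described and were not tested against each other.

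In FR brains 2 of the 20 measured Hox genes were at least 1.2-fold higher than control on both arrays, Hoxb3 and Hoxb9, and none was 1.2-fold lower. Among all 18550 measured genes 3.85% were 1.2-fold higher and 4.2% lower, which for 20 genes is about 1 in each direction. At 1.5-fold, which 0.582% of all genes passed upward and 0.431% downward, there was no Hox gene. The median of the 20 was 0.05, against 0.0050 over all genes. On both arrays 7 were above 0 and 1 was below, and over all genes 28.3% were above and 27.4% below. With median centring in place of loess 3 were above 0 on both arrays and 0 below.

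Hoxb9, the most posterior of the HoxB genes measured and one that shapes thoracic segments, had log2 levels of 6.82 and 6.78 in the FR pool, against 6.52 and 6.38 in control. The ratios were 0.31 and 0.40, a mean of 1.28-fold, and its second probe gave 0.31 and 0.42. Hoxb9 was a dim signal, and its value moved with the treatment of background: the mean ratio was 0.16 with background fitted on all spots and 1.26 with the scanner's own ratio. Hoxb3 had levels of 8.90 and 8.72 in the FR pool and 8.44 and 8.44 in control, with ratios of 0.46 and 0.28 on the probe shown above. The second probe of Hoxb3 gave 0.06 and 0.08, and with that probe in its place 1 Hox gene passed 1.2-fold. The count was 0 with background fitted on all spots, 1 with median centring and 4 with the scanner's own ratio.

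Hoxa7 had levels of 7.64 and 7.64 in the FR pool and 7.39 and 7.18 in control, and its ratios of 0.25 and 0.47 fell just short of 1.2-fold on array 1. Its mean of 0.36 was 0.14 with background fitted on all spots and 0.62 with the scanner's own ratio. Hoxb7 followed with 0.24 and 0.20, Hoxa2 with 0.23 and 0.17 and Hoxc5 with 0.17 and 0.07. All 4 were higher in the FR pool on both arrays. With background fitted on all spots the means of Hoxb7 and Hoxa2 were 0.14 and 0.12, and with the scanner's own ratio those of Hoxa2 and Hoxc5 were 0.36 and 0.23, against 0.22 for Hoxb7, 0.20 for Hoxa2 and 0.12 for Hoxc5 in the main processing. The lowest FR mean was that of Hoxb8, a thoracic-level gene, whose levels were 6.94 and 7.18 in the FR pool and 7.52 and 7.10 in control. Its ratios of -0.58 and 0.08 disagreed in sign between the dye orientations. Hoxd4 had -0.07 and -0.25, the one member below 0 on both arrays, with a mean of -0.16 that was -0.0435 with background fitted on all spots and -0.31 with the scanner's own ratio. The other low members, Hoxa6 (0.03 and -0.07), Hoxb4 (-0.16 and 0.14), Hoxc4 (-0.02 and 0.01) and Hoxd3 (-0.02 and 0.02), lay close to 0 in their mean.

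**Figure D2:**
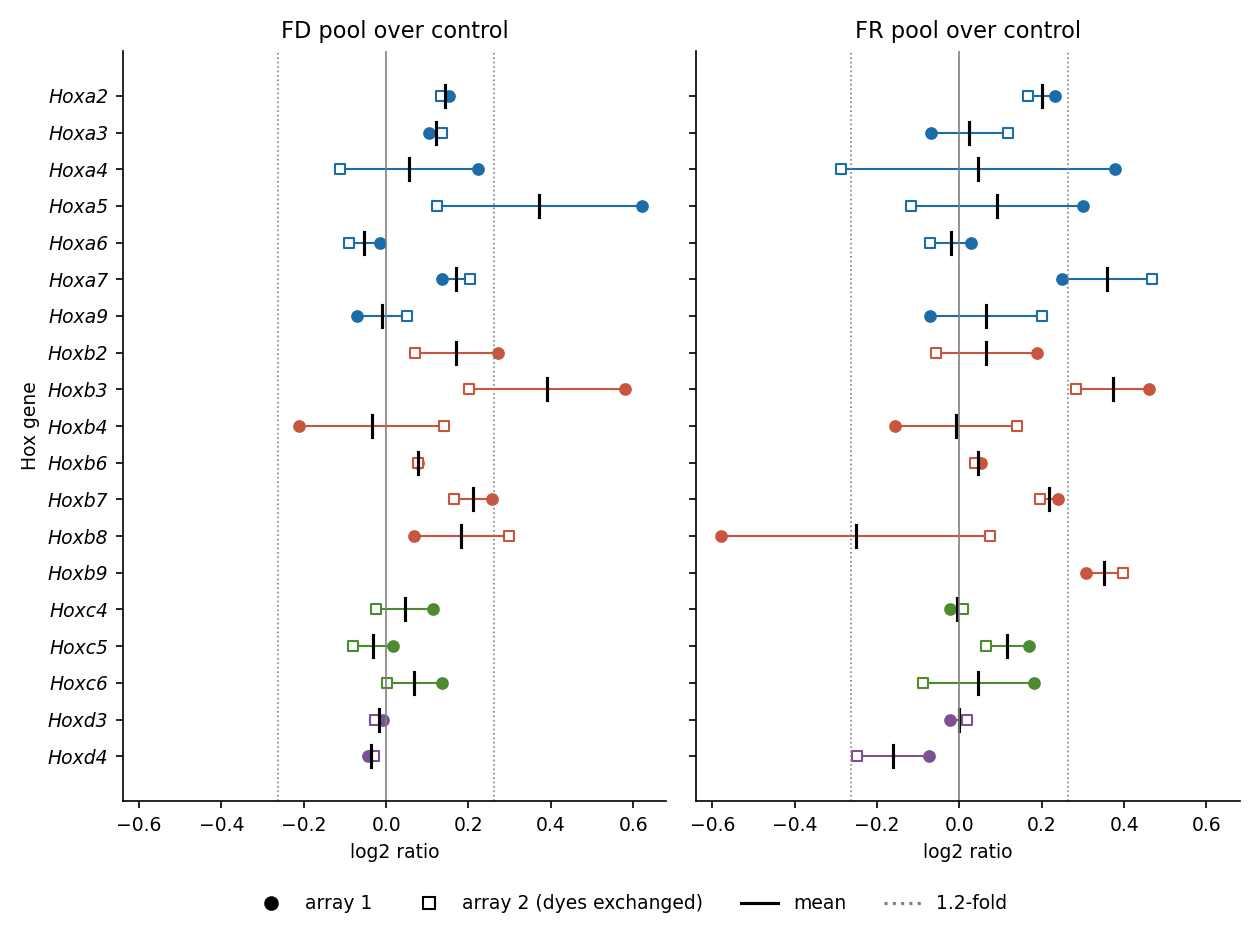
Log2 ratio of the FD pool over control (left) and of the FR pool over control (right) for 19 of the 20 measured Hox genes, array 1 as a filled circle, array 2 as an open square and their mean as a bar, with dotted lines at 1.2-fold. In the left panel no gene has both symbols outside a dotted line, and in the right panel Hoxb3 and Hoxb9 do.

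By cluster, the FR medians were 0.05 for HoxA, 0.07 for HoxB, 0.05 for HoxC and -0.08 for HoxD. The FR ratios of Hoxb3, Hoxa7, Hoxb7 and Hoxa2 stood beside FD ratios of the same sign. The labels do not say how the control RNA of the 2 comparisons was related, and within each dye the controls differed in the muscle gene Myl1 by 2.41 and 2.30 (FD arrays minus FR arrays, log2 levels). The likeness of the 2 comparisons is given only as these values. No measured member was on one side of 0 on both FD arrays and on the other side on both FR arrays.

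When the FR log2 ratio was subtracted from the FD log2 ratio, array by array of equal dye orientation, no Hox gene differed by 1.2-fold on both arrays. The median of the 19 differences was 0.01, 6 were above 0 and 4 below on both arrays, and over the 16750 genes measured in both comparisons 31.2% were above and 30.1% below. At 1.2-fold 2.88% of all genes were higher and 2.46% lower, and at 1.5-fold, where no Hox gene stood either, 0.0716% and 0.269%. The differences of Hoxb8 were 0.65 and 0.22 and those of Hoxa5 0.32 and 0.24, followed by Hoxd4 (0.03 and 0.22), Hoxb2 (0.09 and 0.13), Hoxa3 (0.17 and 0.02) and Hoxc4 (0.14 and -0.03). The lowest were Hoxa7 with -0.11 and -0.26 and Hoxc5 with -0.15 and -0.15, then Hoxa9 (0.0019 and -0.15), Hoxa2 (-0.08 and -0.03), Hoxa6 (-0.04 and -0.02) and Hoxb4 (-0.06 and 0.0021).

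The larger differences lay between the FD arrays and the FR arrays as a whole, in the treated pool and in the control alike. These sets differ in array as well as in RNA, so an effect of the array and a difference in RNA cannot be told apart. Channel levels after normalisation across arrays were compared within each dye: of the 8 measured genes of paralogues 5 to 8, 7 were lower on both FD arrays in the treated pools and 6 in control RNA. Over all paralogues, in the FD pool minus the FR pool, 15 of the 19 Hox genes were below 0 on both arrays and 3 above, while 37.5% of all genes were below and 36.5% above. In the control of the FD arrays minus that of the FR arrays, 14 of 19 were below 0 and 2 above, while 35.1% of all genes were below and 33.9% above.

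At 1.2-fold, 4 of 19 Hox genes (Hoxa7, Hoxb7, Hoxc6 and Hoxb6) had a lower level in the FD pool compared with the FR pool on both arrays, and 4.93% of all genes did. Hoxb8 alone was higher by that measure, as were 3.44% of all genes. In control RNA, 6 Hox genes were 1.2-fold lower on the FD arrays (Hoxb7, Hoxa7, Hoxc6, Hoxa5, Hoxb6 and Hoxc4), that is 6 of 19, and 2.82% of all genes were. None of the 19 was 1.2-fold higher there, as 0.764% of all genes were. Hoxb6 stands in both counts by its brightest probe, and its other measured probe did not pass 1.2-fold on both arrays in either.

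Hoxa7, a gene of the thoracic axis, had log2 levels of 6.89 and 6.94 in the FD pool, against 7.64 and 7.64 in the FR pool. In control RNA the levels were 6.75 and 6.73 on the FD arrays and 7.39 and 7.18 on the FR arrays. The differences were -0.75 and -0.71 between treated pools and -0.64 and -0.44 between controls. In the means of the main processing, Hoxa7 thus differed more between the sets of arrays than between either pool and its control. On array 2 the control difference of -0.44 was smaller in size than the FR ratio of 0.47. Hoxa7 was the one Hox gene 1.5-fold lower in the FD pool than in the FR pool on both arrays, as 0.221% of all genes were. None was 1.5-fold higher, with 0.173% of all genes, and between controls no Hox gene passed 1.5-fold, which 0.0896% of all genes passed downward and 0.113% upward.

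Hoxb7 had levels of 8.68 and 8.60 in the FD pool, against 9.23 and 9.20 in the FR pool. Its levels in control were 8.42 and 8.44 on the FD arrays and 8.99 and 9.0025 on the FR arrays. Within each RNA the 2 arrays differed by less than 0.1. The mean differences between the sets of arrays were -0.58 between treated pools and -0.57 between controls.

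Hoxc6, which specifies motor neurons of the forelimb level, had levels of 6.51 and 6.39 in the FD pool, against 7.08 and 6.84 in the FR pool. In control it had 6.38 and 6.38 on the FD arrays and 6.90 and 6.92 on the FR arrays. Hoxb6, a neighbour of Hoxb7 in the cluster, had mean differences of -0.37 between treated pools and -0.40 between controls. The second measured probe of Hoxb6 had smaller differences of the same sign. Its levels were 7.76 and 7.90 in the FD pool, against 7.96 and 8.15 in the FR pool. In control they were 7.77 and 7.85 on the FD arrays and 8.06 and 7.9955 on the FR arrays. Hoxa5 differed by -0.23 between treated pools and by -0.51 between controls, the one member of paralogues 5 to 8 in which those 2 values were more than 0.2 apart besides Hoxb8. For Hoxb8 they were 0.42 and -0.02.

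**Figure D3:**
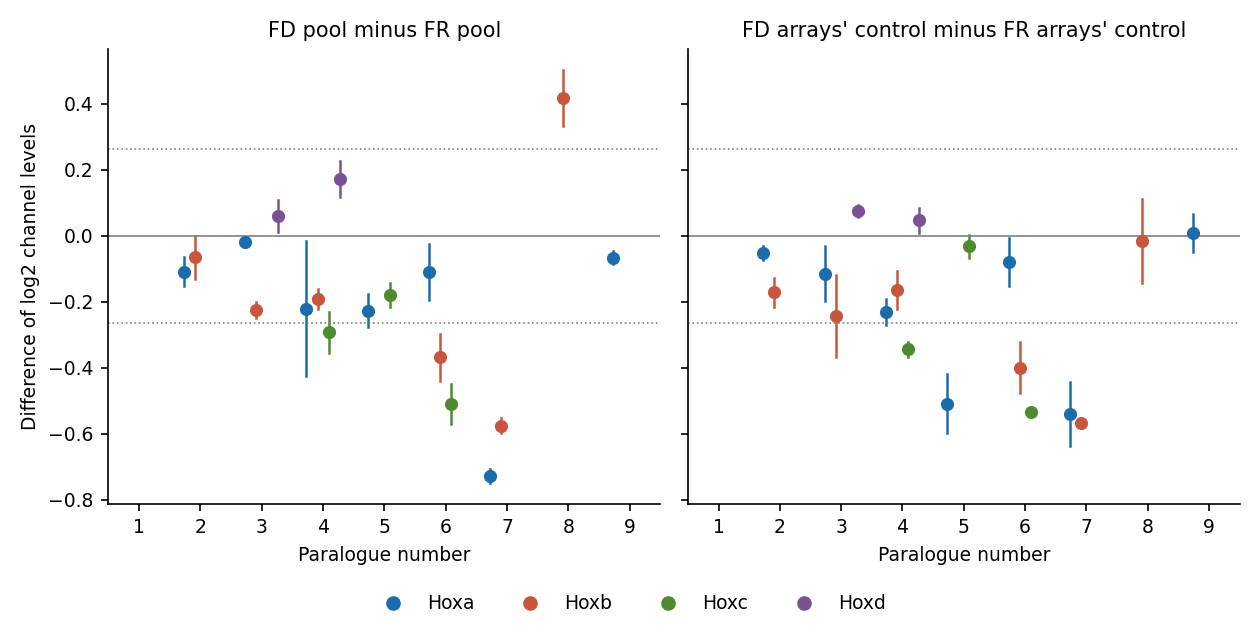
Difference of log2 channel levels, FD arrays minus FR arrays, against paralogue number for the treated pools (left) and for the control RNA (right), as the mean (point) and the values of arrays 1 and 2 (ends of the line), coloured by cluster, for 18 of the 19 genes, with dotted lines at 1.2-fold. Hoxa7, Hoxb7 and Hoxc6 are the lowest points in both panels, and Hoxb8 stands highest in the left panel.

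By median the difference was larger for paralogues 5 to 8 than for paralogues 1 to 4. The median between treated pools was -0.09 over paralogues 1 to 4 and -0.30 over paralogues 5 to 8, and that between controls was -0.14 and -0.45. The all-gene medians were -0.0021 and -0.0038. Hoxa6 and Hoxc5, of the higher-numbered set, had small differences of -0.11 and -0.18 between treated pools and -0.08 and -0.03 between controls. Within paralogues 1 to 4, Hoxc4 was lowest with -0.29 and -0.34. The 2 HoxD genes were above 0 on both arrays in both kinds of RNA: Hoxd3 had 0.06 and 0.07 and Hoxd4 0.17 and 0.05. Hoxa9, with -0.07 and 0.0086, was close to 0.

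Hoxb9 passed the filter through the FR arrays alone, so its difference is a description and was not counted above. It was well above background in all 4 channels of the FR arrays and in none of the FD arrays, on both of its probes. The levels of the probe shown above were 6.09 and 5.93 in the FD pool, against 6.82 and 6.78 in the FR pool. In control they were 6.08 and 5.93 on the FD arrays and 6.52 and 6.38 on the FR arrays. On this probe the mean level of the FR pool was 1.73-fold that of the FD pool, and on the other probe 1.54-fold. For control RNA the values were 1.36-fold and 1.22-fold. Each ratio sets the mean of the FR arrays against, per FD array, the higher of the dimmest passing probe and the Hoxb9 signal itself. That FD signal was not well above background, so these ratios are not lower limits.

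**Figure D4:**
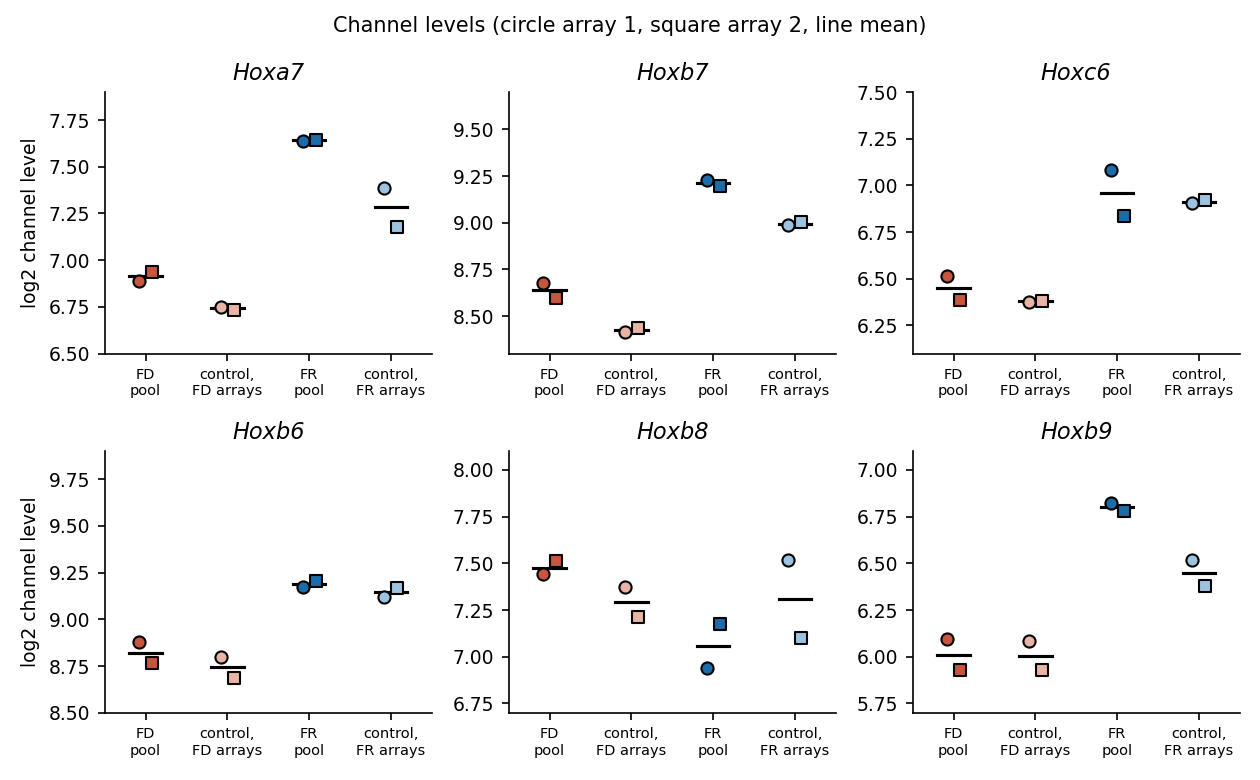
Log2 channel levels of 6 Hox genes in the FD pool, the control of the FD arrays, the FR pool and the control of the FR arrays, with array 1 as a circle, array 2 as a square and their mean as a line. For Hoxa7, Hoxb7, Hoxc6 and Hoxb6 all 4 values on the right lie above all 4 on the left, and for Hoxb8 they do not. The genes were chosen after their values were seen, and the share of all genes separated in this way was not counted. Hoxb9 passed the filter through the FR arrays alone.

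Other genes that mark hindbrain and spinal cord were read beside the Hox values. Of 27 on the array, 20 were measured in both comparisons and 7 were not. Between treated pools 11 of the 20 were below 0 on both arrays, 6 above, and 4 were 1.2-fold lower, with a median of -0.12, beside 37.5% of all genes below 0, 36.5% above and 4.93% 1.2-fold lower. Between controls 11 were below 0, 3 above, and 4 were 1.2-fold lower, with a median of -0.06, beside 35.1%, 33.9% and 2.82% of all genes. The mean log2 level of the 20 was 7.69 in the FD pool and 7.68 in its control, against 7.79 in the FR pool and 7.80 in its control.

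The members of that list furthest below 0 between controls were Prph, Isl2, Lhx4 and Fev. Prph, which encodes the intermediate filament peripherin of motor and sensory neurons, had levels of 7.96 and 7.90 in the FD pool, against 8.23 and 8.26 in the FR pool. In control it had 7.92 and 7.91 on the FD arrays and 8.51 and 8.53 on the FR arrays. Isl2, a transcription factor of motor neurons, differed by -0.35 between treated pools and -0.43 between controls, Lhx4, another, by -0.27 and -0.39, and Fev, which specifies serotonergic neurons of the raphe, by -0.39 and -0.35. Slc17a6, the vesicular glutamate transporter VGLUT2, lay in the opposite direction with 0.15 and 0.25. So did, between treated pools, the serotonin transporter gene Slc6a4 with 0.24, the serotonin synthesis gene Tph2 with 0.14 and the choline transporter gene Slc5a7 with 0.19, so genes of one transmitter type did not share a sign. Between controls those 3 had -0.10, -0.02 and 0.04. Chat, like Slc5a7 a gene of cholinergic neurons, was 1.2-fold lower between treated pools with -0.39 and -0.2649. It differed by -0.18 between controls. Lhx4 did not pass 1.2-fold on both arrays between treated pools. Whether the amount of hindbrain or cord tissue in each pool moved with these values was not tested, and in bulk RNA fewer cells of a type and less RNA per cell cannot be told apart.

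Of 15 forebrain genes, 0 passed 1.2-fold in either direction between controls, 5 were above 0 and 4 below on both arrays, and the median was 0.01. Of all genes 33.9% were above 0 and 35.1% below there, and 0.764% were 1.2-fold higher and 2.82% lower. Between treated pools the forebrain median was -0.13. In FR over control the forebrain list had a median of 0.15 and 10 of 16 genes above 0 on both arrays, beside 28.3% of all genes. The part of that shift in the FR values of the Hox genes was not tested.

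Skeletal muscle genes separated the control of the FD arrays from the other 3 RNAs. The mean log2 level of the 12 measured in both comparisons was 7.67 in the FD pool and 9.12 in its control, against 7.97 in the FR pool and 7.91 in its control. Between controls the muscle median was 1.39, opposite in sign to the -0.45 of Hox paralogues 5 to 8. Between treated pools the muscle median was -0.32 beside -0.30 for those Hox genes. In FD over control 9 of 12 muscle genes were 1.5-fold lower, with a median of -1.64, beside the Hox median of 0.07. Of all genes 0.128% were 1.5-fold lower in FD. The mean log2 level of the 19 Hox genes was 7.52 in the FD pool and 7.42 in its control, against 7.69 in the FR pool and 7.63 in its control. The FD pool had the lowest muscle level and its control the highest, and both had lower Hox levels than the RNAs of the FR arrays. The part of muscle RNA in the Hox levels was not tested.

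Other tissues next to the brain were read the same way. The mean log2 level of 9 cartilage and bone genes was 7.84 in the FD pool and 8.15 in its control, against 8.10 in the FR pool and 7.83 in its control. Between treated pools 3 of the 9 were 1.2-fold lower and 1 higher, with Col2a1, the collagen of cartilage, at -0.83 and Col1a1, that of bone, at -0.81, and between controls none was lower and 3 were higher, with Spp1 at 1.43. Their sign was thus that of Hox paralogues 5 to 8 between treated pools and the opposite between controls. At 1.2-fold 4.93% of all genes were lower and 3.44% higher between treated pools, and 2.82% and 0.764% between controls. The pituitary list had mean levels of 7.22 in the FD pool and 7.63 in its control, against 7.24 in the FR pool and 7.25 in its control, and the hormone genes Gh and Pomc were higher by 1.75 and 1.09 in the control of the FD arrays. Blood genes had mean levels of 7.90 in the FD pool and 7.96 in its control, against 8.12 in the FR pool and 8.04 in its control, with the embryonic globin Hbb-y at -0.77 between treated pools and -0.23 between controls. The part of these tissues in the Hox levels was not tested.

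The partners of the Hox proteins were taken from a list of 9 Pbx, Meis and Pknox genes. In FD all 9 were measured, with a median of -0.01 and none past 1.2-fold, beside 1.18% of all genes higher and 1.0% lower. In FR 8 were measured, with a median of -0.01, and Pbx4 passed 1.2-fold with 0.58 and 0.28, as 3.85% of all genes did upward. Pbx4 stood at 0.34 and 0.06 in FD. Between FD and FR arrays none of 8 passed 1.2-fold in treated pools or in control, and 7 of 8 were below 0 on both arrays between treated pools. Over all genes 37.5% were below 0 between treated pools. At 1.2-fold 4.93% of all genes were lower and 3.44% higher there, and 2.82% and 0.764% between controls.

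Of 24 regulators of Hox expression and enzymes and receptors of the retinoic acid pathway, 23 were on the array and 18 were measured in FD and 17 in FR. Their medians were 0.01 and -0.02, and none passed 1.2-fold in either. Of all genes 1.18% were 1.2-fold higher and 1.0% lower in FD, and 3.85% and 4.2% in FR. The largest FR means were those of Aldh1a3, which makes retinoic acid, with 0.20 and 0.46, and of Rxra, a retinoid receptor, with 0.22 and 0.39. Between FD and FR arrays the median of the 16 measured in both was -0.01 in treated pools and -0.03 in controls. Rarb, the retinoid receptor gene that is itself a target of retinoic acid, had differences of ratios of 0.27 and 0.15 for FD minus FR.

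Of 20 Polycomb and trithorax genes 18 were measured in each comparison, with medians of -0.0072 in FD and 0.05 in FR. Phc1, of Polycomb complex 1, passed 1.2-fold in FR with 0.69 and 0.38, as 3.85% of all genes did upward, and had 0.30 and 0.08 in FD. Suz12, of complex 2, had -0.13 and -0.41 in FD. Between treated pools 3 of the 18 were 1.2-fold lower in FD, and between controls none was, beside 4.93% and 2.82% of all genes. The values of Cbx2, which binds the mark that complex 2 writes, were -0.32 and -0.35 between treated pools.

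Genes that flank the clusters on the chromosome were read to see whether neighbours of other families shared the Hox values. In FD, 1 flanking gene passed 1.2-fold, Cbx1 beside HoxB, lower with -0.81 and -0.37, as 1.0% of all genes were. In FR, 1 passed, Snx10 beside HoxA, lower with -0.34 and -0.37, as 4.2% of all genes were. Cbx1 went the other way from Hoxb3 of its cluster, and Snx10 the other way from the HoxA median of 0.05 in FR. Evx2, a homeobox gene next to Hoxd13, was lower on the FD arrays by -0.37 between treated pools and -0.26 between controls, whereas Hoxd3 and Hoxd4 were not. Between treated pools Snx10 was 1.2-fold higher in the FD pool, with 0.35 and 0.44, as 3.44% of all genes were. Evx2 was 1.2-fold lower there, with -0.37 on each array, as 4.93% of all genes were. Between controls none of the 18 flanking genes measured in both comparisons passed 1.2-fold, beside 2.82% of all genes lower and 0.764% higher.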

How the data were processed

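Per the file headers, the deposited scanner files, made with Agilent Feature Extraction 9.5.3.1 per the submitters' processing notes, hold mean spot and median background intensity per channel, uncorrected, and flags as scores of 0 or 1. A log10 ratio (red to green) stands beside them, which the scanner software had background-subtracted and dye-normalised as deposited. The authors' deposited value table gives no unit. On spots above background it correlated with the turned scanner ratio at r = 1, so the authors had deposited log2 values of treated to control there, with column medians of -0.03, 0.03, -0.03 and 0.01. How its dim spots were made is unknown.

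Intensities were corrected with normexp (offset 50) after leaving out spots whose local background exceeded 2 times that array's median, and normalised with loess within arrays in limma 3.58.1 under R 4.3.3. Control and outlier-flagged spots were left out. Array 2 of each comparison was turned. Channel levels were normalised between arrays with Aquantile. Tested on simulated data, offset 50 shrank the ratios of dim spots, so folds of dim genes are understated. Levels are never compared between probes. Each gene was read from its brightest measured probe. Coordinates are the array files' (mm9), and names of other genes were updated through RefSeq (GRCm38.p6).

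Named were the 6 highest and 6 lowest members per comparison, all past 1.2-fold on both arrays, and up to 3 genes per list, with genes singled out for channel levels chosen after their values were seen. The members and all 15 gene lists were chosen with earlier results of these data known. One member, left out of the figures, and some other results are not reported here. All 4 arrays were on 1 slide.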

Additional observations from a re-analysis of the deposited data

How the results depend on the processing

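With 1 pool per condition there is no biological replication, dim probes carry shrunken ratios, and probes not well above background give no ratio. No paired analysis was possible because the 2 arrays of each comparison carry identical pools, the shared number marks the dye orientation, and no test was run. The slide could not be used as a block, since all arrays share 1 slide. Alternatives for channel levels, the kept flagged spots and the other Hoxb3 probe were chosen after seeing the data. The cause of each change below was not tested except where fewer or more genes enter.

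With the scanner's own ratio, and equally with the deposited table, the Hox medians were 0.11 for FD, 0.0853 for FR and 0.0566 for FD minus FR, against 0.07, 0.05 and 0.01, with 1 gene lower on both arrays in FD and 2 in FR. With median centring in place of loess, 1 gene was higher on both arrays and 0 lower in FD, and 3 were higher and 0 lower in FR. Without background correction 2 were lower in FR, as with 1 channel above background. With no filter on dim probes the FD median was 0.0212, and 16 genes were higher and 9 lower in FD, and 12 higher and 5 lower in FR. Of paralogues 9 to 13, 2 genes were measured in FD and 5 in FR when 1 channel sufficed, and 15 with no filter.

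Between treated pools, with no filter the level medians were -0.0654 over all Hox genes and -0.20 over paralogues 5 to 8, and with each channel centred on its median that over paralogues 1 to 4 was -0.16. Between controls, with no filter they were -0.0693 over all, -0.0868 over paralogues 1 to 4 and -0.24 over 5 to 8, and with each channel centred the last was -0.39.

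Without one array or the other, the FD median was 0.0594 to 0.13 with 12 to 15 genes higher and 5 to 8 lower, and the FR median 0.0515 to 0.0606 with 12 to 14 higher and 6 to 9 lower, and FD minus FR was -0.0197 to 0.0174. In FD 10 genes of paralogues 1 to 4, 8 to 9 of 5 to 8 and 1 to 2 of 9 to 13 were measured, and in FR 10, 8 and 2 to 3. Between treated pools the medians were -0.19 to -0.14 over all, -0.14 to -0.0405 over paralogues 1 to 4 and -0.31 to -0.29 over 5 to 8, with 5 to 6 genes 1.2-fold lower. Between controls they were -0.20 to -0.12, -0.15 to -0.0877 and -0.43 to -0.42, with 6 to 8 lower.

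Among single genes, Hoxa6 turned positive in FD (0.0079 without background correction, 0.025 with the scanner's ratio or the deposited table) and in FD minus FR (0.0097 and 0.0708), Hoxd3 in FD with median centring (0.0043), and Hoxa2 and Hoxa7 in FD minus FR with background fitted on all spots (0.0222 and 0.0326).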
